A study of Mus musculus with 18 samples.

Results

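The genes described here are 40 mouse genes whose products build the spindle, hold chromosomes to it, time the exit from mitosis or divide the cell. They were taken by name from a list that was chosen with earlier results of these data known. Each was looked up in the array's value table by its platform symbol. Of the 40 genes, 35 had a probe there, among 13032 named genes in all. A probe was tested when its detection p-value was below 0.01 on at least 3 of the 18 arrays, and 33 of the mitosis genes passed, among 10146 named genes in all. Detection was met on all 18 arrays for 27 of them. Cks2, a subunit of cyclin-dependent kinase complexes, and Ube2c, the ubiquitin-conjugating enzyme of the anaphase-promoting complex, were detected on 1 and 2 arrays, with log2 values of 6.68 to 7.15 and 6.71 to 6.98, and were not tested. Bub1, Kif20a, Cenpe, Nek2 and Racgap1 were not analysed here.

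Mitosis is started by cyclin-dependent kinase 1 together with the Polo and Aurora kinases. Chromosomes condense, kinetochores assemble on centromeres and catch microtubules, and the spindle checkpoint holds the anaphase-promoting complex back until every chromosome is attached. That complex then frees separase, sister chromatids part, and the midzone and contractile ring divide the cell. Many of these genes are transcribed late in the cell cycle and are shut down when a cell stops dividing, as myoblasts do when serum is lowered and they turn into muscle. The C2C12 line is an immortal mouse myoblast line that follows this course in culture.

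C2C12 cells were transfected with an RNAi against STAC3 or with a control RNAi of high GC content. The 4 groups were STAC3 RNAi at day 1 (4 samples), control at day 1 (4 samples), STAC3 RNAi at day 0 (4 samples) and control at day 0 (3 samples). Day 1 was 48 h after transfection, with the last 24 h in differentiation medium (2% fetal bovine serum in DMEM), and day 0 was 24 h after transfection, in growth medium (20% of that serum in DMEM). Medium and time since transfection changed together, so their effects cannot be told apart. All samples are of 1 cell line, and 1 RNAi against STAC3 is named; its action on transcripts other than Stac3 was not tested. The replicates are described as biological without mention of separate transfections, and the p-values speak only of the spread among these samples.

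The arrays detected 15146 to 16802 probes each, and 3 samples had a repeat array that was averaged with its partner. Stac3, which encodes a protein of the muscle calcium channel complex, lay between 6.70 and 6.81 in STAC3 RNAi samples and between 7.52 and 7.97 in control samples at day 1, and between 6.68 and 6.79 in STAC3 RNAi samples and between 6.98 and 7.15 in control samples at day 0. All STAC3 RNAi samples lay under 6.88, the log2 value at which probes pass detection. The fall on day 1 was therefore at least 1.74-fold (limma adjusted p = 6.03e-07), and that on day 0 at least 1.13-fold (limma adjusted p = 0.0214). Of the myoblast markers, Des (12.13 to 13.39) and Chrna1 (11.89 to 13.83) were detected on all 18 arrays, while Myf5 was at most 6.86. The leukocyte marker Ptprc was detected on 1 array and Cd14 on 18, and no endothelial or adipocyte marker passed the filter. Of 3 epithelial markers with a probe, Krt8 was detected on 12 arrays (at most 7.27) and Cdh1 on 6. Krt8 rose by 0.23 between days in STAC3 RNAi cells (limma adjusted p = 0.0373), Cdh1 passed in no comparison, and whether this bears on the mitosis genes was not tested. Myog, a driver of muscle differentiation, and Cdkn1a, a cyclin-dependent kinase inhibitor, fell by 1.47 and 1.13 with STAC3 RNAi at day 1 (limma adjusted p = 0.000229 and 9.99e-08). All 5 tested myoblast markers fell in that comparison (median -0.86). At day 0, 2 of the 5, Des and Chrna1, fell (median -0.25). Between days 4 of the 5 rose and Myod1 fell in STAC3 RNAi cells (median 0.59), and 4 rose in control cells (median 1.06). Whether the moves of these markers bear on the mitosis genes was not tested. A set of 6 arrays had median intensities of 50.4 to 57.3, against 65.5 to 85.5 on the other 12, and each group had arrays in both sets. Control day 0 replicate 4 had lower levels of the mitosis genes than the other control samples of that day, and counts without it are given below.

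Promoters of late cell cycle genes are known for a CHR element, bound by the repressive DREAM complex in resting cells and by its activating relatives in dividing ones, near CCAAT boxes bound by NF-Y. RefSeq promoter windows, 250 bases before to 50 after the start of each gene in build GRCm38.p6, were on hand for 35 of the 40 genes. The CHR letters TTTGAA, searched on both strands, were in the window of 24 of the 29 tested mitosis genes with a window (82.8%), against 14.0% of 8219 tested genes with one, and in 26 of all 35 (74.3%), against 17.9% of all 32851 windows. The CCAAT letters on either strand were in 20 of the 29 (69.0%), against 42.9% of tested genes, and in 26 of the 35 (74.3%), against 37.4% of all windows. Both stood in 1 window for 20 of the 29 (69.0%), against 5.7% of tested genes, and for 22 of the 35 (62.9%), against 7.0% of all windows. An E2F site spelled TTTGGCGC or TTTCGCGC was in 1 of the 29, against 1.8% of tested genes, and in 1 of the 35 (2.9%), against 0.8% of all windows. A gene was counted when any of its windows held the letters, while the shares of all windows count each window by itself. These counts are matches of letters, not sites shown to be bound. The 120 bases before the start are printed for the 6 tested genes with a single window that hold both motifs in that stretch. They were chosen for holding both, so their spacing does not stand for the other genes. They are Cdk1 at chr10:69352913-69353032 (minus strand), Top2a at chr11:99024190-99024309 (minus strand), Kif22 at chr7:127042421-127042540 (minus strand), Kif11 at chr19:37376262-37376381 (plus strand), Cdc20 at chr4:118437344-118437463 (minus strand) and Espl1 at chr15:102296173-102296292 (plus strand). Each reads 5′ to 3′ on the strand of the gene, and capitals mark TTTGAA or its reverse complement TTCAAA, and CCAAT or its reverse complement ATTGG.
Cdk1: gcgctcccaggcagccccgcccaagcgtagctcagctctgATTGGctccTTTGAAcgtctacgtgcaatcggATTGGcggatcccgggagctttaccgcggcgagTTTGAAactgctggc
Top2a: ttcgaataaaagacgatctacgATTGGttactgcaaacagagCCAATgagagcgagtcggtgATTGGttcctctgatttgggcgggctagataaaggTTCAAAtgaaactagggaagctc
Kif22: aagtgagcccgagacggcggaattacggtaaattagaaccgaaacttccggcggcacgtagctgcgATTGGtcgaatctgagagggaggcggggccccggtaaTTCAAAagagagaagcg
Kif11: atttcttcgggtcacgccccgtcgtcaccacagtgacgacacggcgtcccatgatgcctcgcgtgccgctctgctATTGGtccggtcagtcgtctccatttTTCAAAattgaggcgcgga
Cdc20: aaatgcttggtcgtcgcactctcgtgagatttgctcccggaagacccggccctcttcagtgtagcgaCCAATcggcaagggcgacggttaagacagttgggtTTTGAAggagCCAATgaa
Espl1: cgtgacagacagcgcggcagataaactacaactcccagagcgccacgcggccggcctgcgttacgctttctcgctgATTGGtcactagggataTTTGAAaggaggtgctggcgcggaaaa
In Kif22 the CHR letters start at position -17 and the CCAAT letters at -54, counted from the first transcribed base. In Kif11 they start at -19 and -45, and in Espl1 at -27 and -44. The levels of these 6 genes stand with their steps of mitosis below.

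The main comparison set STAC3 RNAi cells against control cells on each day. At day 1, in differentiation medium, mitosis genes were broadly higher in STAC3 RNAi cells: 26 of 33 rose and 1, Kif23, fell, with a limma adjusted p below 0.05 over all 18408 tested probes. Over all tested probes 16.8% rose and 16.2% fell (33.1% in either direction). The median log2 difference of the 33 genes was 0.48, with a range of -0.97 to 0.93, against a median of 0.009 over all tested probes. In 23 of the 33 the STAC3 RNAi samples did not overlap the control samples, as in 28.2% of all tested probes. In these bulk samples a change in the number of dividing cells and a change in RNA per cell cannot be told apart. The 6 genes that did not pass were Cdca5, Cenpf, Nuf2, Ttk, Pttg1 and Espl1, and 5 of them were not detected on all 18 arrays. Within the 6 dimmer arrays alone, the median log2 difference of the 33 genes was 0.48. Within the other 12 arrays 24 rose and Kif23 fell, and the share of all tested probes called in that fit is not given here.

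At day 0, in growth medium, 16 of the 33 genes rose with STAC3 RNAi and Kif23 fell. Over all tested probes 6.7% rose and 5.79% fell (12.5% in either direction). The median log2 difference was 0.28, with a range of -0.77 to 0.58, against a median of 0.006 over all tested probes. Groups did not overlap in 20 of the 33, against 27.1% of all tested probes. Fewer genes passed without any 1 sample of that day, against 17 with all of them. The count was 8, 10, 11 and 11 without STAC3 RNAi replicates 1, 2, 3 and 4, and 10, 11 and 6 without control replicates 2, 3 and 4. Over all tested probes 1480 to 1942 passed without 1 sample of that day, against 2298 with all of them.

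**Figure D1:**
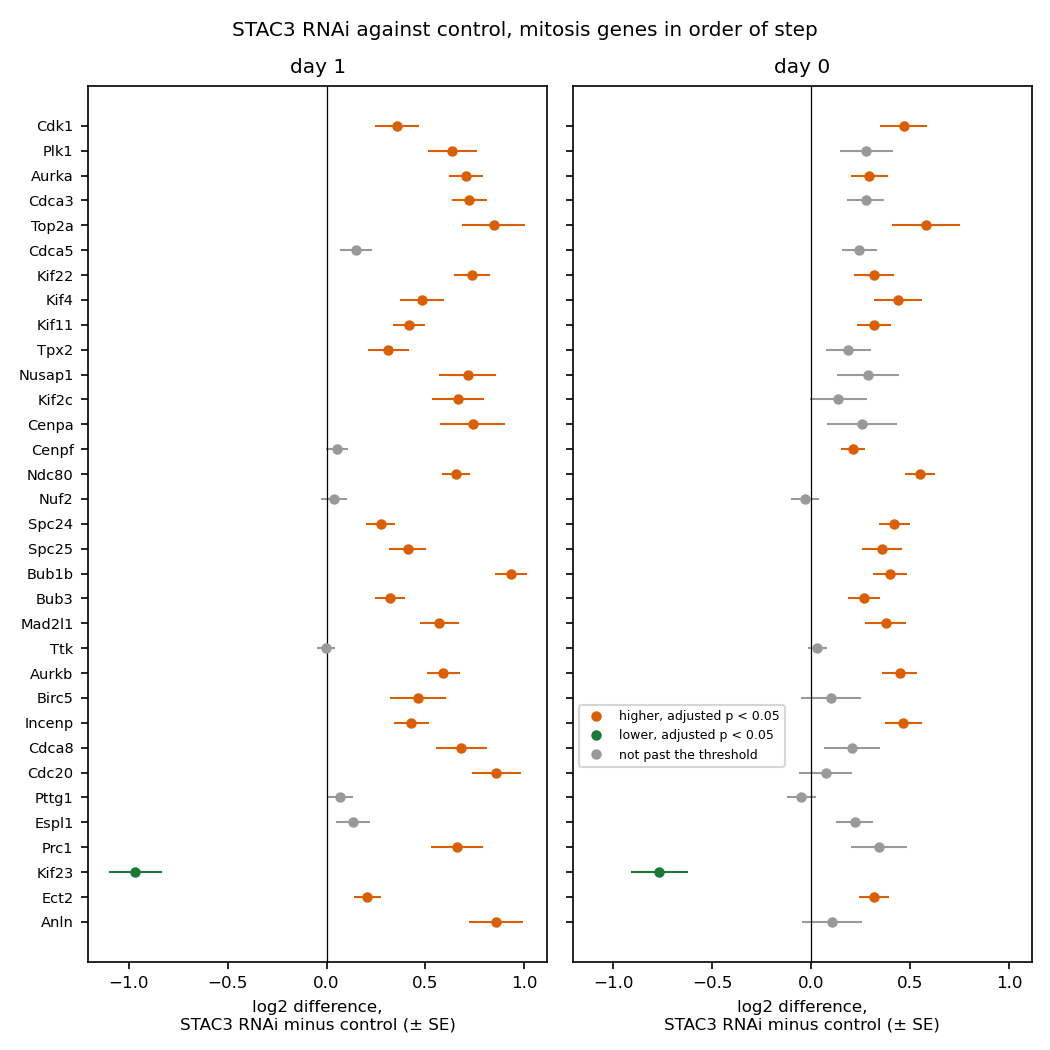
Log2 difference of STAC3 RNAi minus control for the 33 tested mitosis genes in order of step, at day 1 (left) and day 0 (right), with bars of 1 standard error. Orange points passed as higher, green points as lower and grey points did not pass; 26 points are orange at day 1 and 16 at day 0, and Kif23 alone is green on both days.

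Between the days the same genes moved far more. In STAC3 RNAi cells 32 of 33 fell at day 1 relative to day 0 and 1, Kif23, rose, where 20.8% of all tested probes fell and 20.7% rose (41.4% in either direction). In control cells 31 of 33 fell and Kif23 rose, where 18.1% of all tested probes fell and 17.7% rose (35.8% in either direction). The median log2 difference of the 33 genes was -1.35 in STAC3 RNAi cells and -1.63 in control cells, against 0.002 and -0.003 over all tested probes. Groups did not overlap for 32 of the 33 genes in either kind of cells, against 37.6% of tested probes in STAC3 RNAi cells and 41.1% in control cells. A gene that passes the detection filter only through its day 0 values, as Ttk did, had to be lower at day 1, so these counts are given also for the 27 genes detected on all arrays, of which 26 fell and Kif23 rose in each kind of cells. These comparisons share their samples with those of STAC3 RNAi against control, so their values are set side by side below and not correlated.

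**Figure D2:**
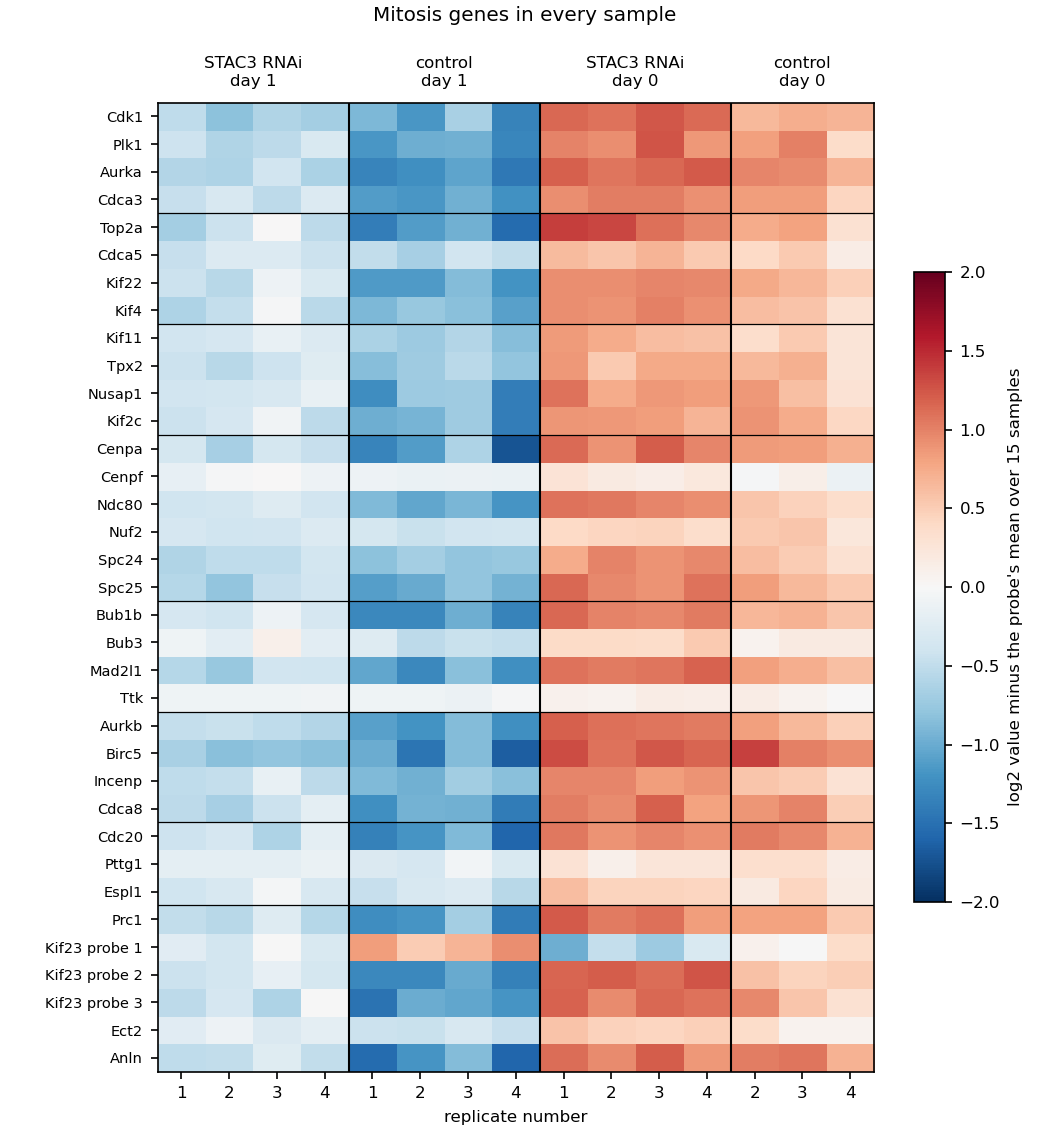
Heat map of the 33 tested mitosis genes, with all 3 probes of Kif23, in each of 15 samples, as log2 value minus the probe's mean over the samples. Columns run from STAC3 RNAi and control at day 1 to STAC3 RNAi and control at day 0, red is above and blue below the probe's mean; Kif23 probe 1 is blue at day 0 in STAC3 RNAi samples, where the other probes are red.

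Each sample was also placed by the median of 32 genes, without Kif23, of its value minus the gene's mean over all samples. At day 1 the medians were -0.43, -0.43, -0.28 and -0.34 in STAC3 RNAi replicates 1 to 4, and -0.98, -0.97, -0.76 and -1.20 in control replicates 1 to 4. At day 0 they were 0.98, 0.93, 0.97 and 0.88 in STAC3 RNAi replicates 1 to 4, and 0.70, 0.66 and 0.36 in control replicates 2 to 4. On each day every STAC3 RNAi sample lay above every control sample, and control day 0 replicate 4 lay lowest of its day. The median standard deviation of a gene was 0.129 in STAC3 RNAi and 0.15 in control samples at day 1, and 0.08 in STAC3 RNAi and 0.165 in control samples at day 0.

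The counts for each step of mitosis, of 3 to 6 genes, stand beside 16.8% of all tested probes that rose with STAC3 RNAi at day 1 and 6.7% at day 0, and beside 20.8% and 18.1% that fell between days in STAC3 RNAi and control cells. Among the kinases and partners that start mitosis, all 4 tested genes rose with STAC3 RNAi at day 1 and 2 of 4 at day 0. Aurka encodes Aurora A, the kinase that matures centrosomes and helps activate Plk1. The day 1 samples gave 8.79, 8.76, 9.0 and 8.75 in STAC3 RNAi samples, against 8.06, 8.16, 8.33 and 7.94 in controls. At day 0 the values were 10.58, 10.45, 10.53 and 10.60 in STAC3 RNAi samples, against 10.35, 10.32 and 10.06 in controls. Every STAC3 RNAi sample was above every control of its day. The log2 difference was 0.70 (SE 0.09, limma adjusted p = 1.5e-05) at day 1, a 1.63-fold rise, and 0.30 (SE 0.09, limma adjusted p = 0.0477) at day 0. The day 0 call was lost without any single sample of that day (limma adjusted p of 0.0544 to 0.224). Cdk1, the kinase that drives entry into mitosis, rose by 0.36 (SE 0.11) at day 1, where its groups overlapped, and by 0.47 (SE 0.12) at day 0. Plk1, the Polo-like kinase of spindle assembly and cytokinesis, rose by 0.64 (SE 0.12) at day 1 and differed by 0.28 (SE 0.13) without passing at day 0 (limma adjusted p = 0.21). Cdca3, which helps degrade the Cdk1 inhibitor Wee1, rose by 0.72 (SE 0.09) at day 1 and differed by 0.28 (limma adjusted p = 0.0733) at day 0. Between days all 4 fell, with log2 differences of -1.80 to -1.37 in STAC3 RNAi cells and -2.12 to -1.69 in control cells.

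**Figure D3:**
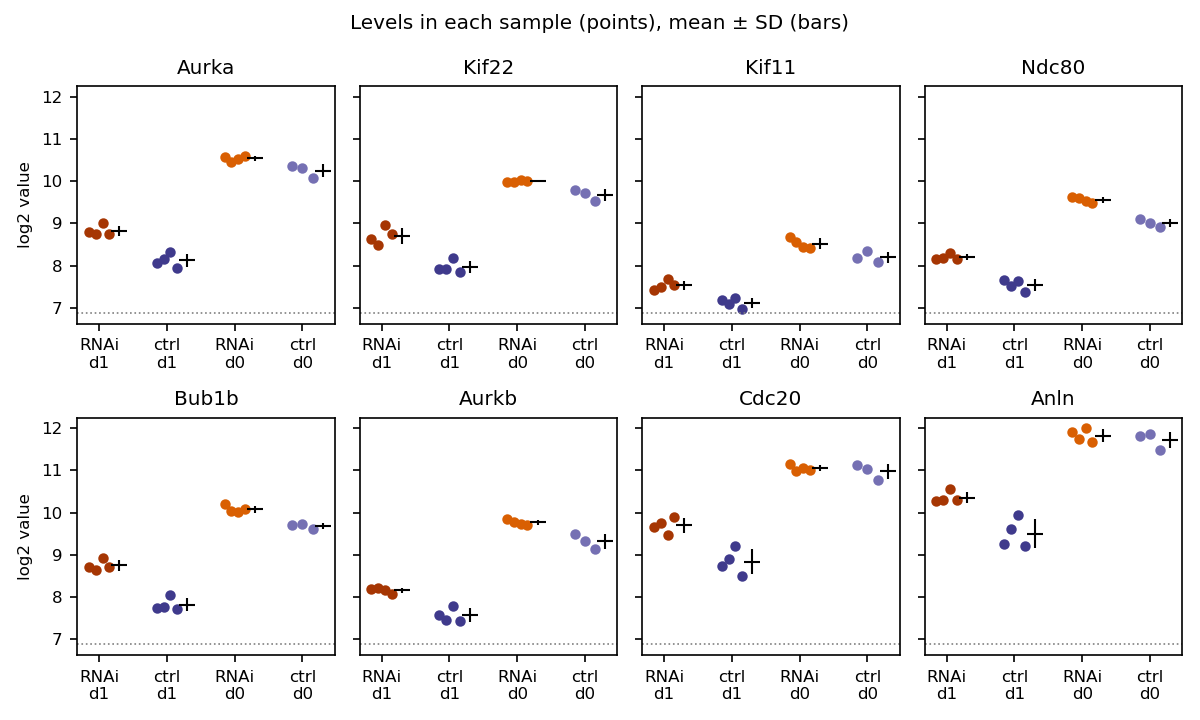
Log2 values of 8 mitosis genes in each sample (points) with the mean and standard deviation (bars), in STAC3 RNAi (RNAi) and control (ctrl) samples at day 1 (d1) and day 0 (d0); the dotted line is the detection level of 6.88. All 8 genes are lower at day 1 than at day 0, and at day 1 every STAC3 RNAi sample lies above every control sample. Each was chosen for the smallest p at day 1 in its step, but for Anln, shown in place of Kif23. The separation at day 1 therefore follows in part from the choice, and over the 33 tested genes groups did not overlap in 23.

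Of the genes of chromosome structure, 3 of 4 rose with STAC3 RNAi on each day, and Cdca5 passed on neither. Kif22 encodes a chromosome-bound kinesin that pushes chromosome arms toward the spindle equator. Day 1 levels were 8.62, 8.50, 8.95 and 8.74 in STAC3 RNAi samples, against 7.92, 7.92, 8.19 and 7.85 in controls. On day 0 they were 9.98, 9.97, 10.02 and 10.01 in STAC3 RNAi samples, against 9.80, 9.71 and 9.53 in controls. The groups did not overlap on either day. The log2 difference was 0.73 (SE 0.09, limma adjusted p = 2.09e-05) at day 1 and 0.32 (SE 0.10, limma adjusted p = 0.0482) at day 0, where the call was lost without any single sample of that day (limma adjusted p of 0.0526 to 0.207). Top2a, the topoisomerase that untangles sister DNA, rose by 0.85 (SE 0.16) at day 1 and by 0.58 (SE 0.17) at day 0. Kif4, a kinesin of chromosome arms and the midzone, rose by 0.48 (SE 0.11) at day 1 and by 0.44 (SE 0.12) at day 0. Cdca5, or sororin, which guards sister cohesion, differed by 0.15 at day 1 (limma adjusted p = 0.19) and by 0.24 at day 0 (limma adjusted p = 0.0919). All 4 fell between days, with log2 differences of -1.60 to -0.96 in STAC3 RNAi cells and -1.86 to -0.86 in control cells.

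In the spindle group all 4 genes rose with STAC3 RNAi at day 1 and 1 of 4 at day 0. Kif11 encodes Eg5, the motor that slides microtubules apart to make the spindle bipolar. Its day 1 values were 7.43, 7.48, 7.67 and 7.54 in STAC3 RNAi samples, against 7.18, 7.08, 7.23 and 6.97 in controls. Its day 0 values were 8.67, 8.56, 8.43 and 8.41 in STAC3 RNAi samples, against 8.17, 8.34 and 8.08 in controls. No control sample reached the STAC3 RNAi samples of its day. The log2 difference was 0.42 (SE 0.08, limma adjusted p = 0.000879) at day 1 and 0.32 (SE 0.09, limma adjusted p = 0.024) at day 0. The day 0 call was lost without STAC3 RNAi replicate 1 or 2 or control replicate 2 or 4 (limma adjusted p of 0.0596 to 0.119). Tpx2, which activates Aurora A on the spindle, Nusap1, a microtubule bundling protein, and Kif2c, a kinesin that takes microtubules apart at centromeres, rose by 0.31, 0.71 and 0.66 at day 1. At day 0 they differed by 0.19, 0.29 and 0.14 without passing (limma adjusted p of 0.273 to 0.615). Between days the 4 genes fell, with log2 differences of -1.18 to -0.98 in STAC3 RNAi cells and -1.68 to -1.08 in control cells.

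At the centromere and kinetochore 4 of 6 genes rose with STAC3 RNAi on each day: Ndc80, Spc24 and Spc25 on both, Cenpa at day 1 and Cenpf at day 0. Ndc80 encodes the subunit whose head grips the microtubule. The day 1 samples gave 8.16, 8.18, 8.30 and 8.16 in STAC3 RNAi samples, against 7.66, 7.51, 7.64 and 7.37 in controls. The day 0 samples gave 9.63, 9.61, 9.52 and 9.49 in STAC3 RNAi samples, against 9.11, 9.02 and 8.90 in controls. The groups stood well apart on both days, by 0.66 (SE 0.07, limma adjusted p = 3.87e-06) at day 1 and 0.55 (SE 0.07, limma adjusted p = 0.000186) at day 0. Of its partners in the Ndc80 complex, Spc24 rose by 0.27 at day 1 and 0.42 at day 0, and Spc25 by 0.41 and 0.36. Cenpa, the histone that marks the centromere, rose by 0.74 (SE 0.17) at day 1 and differed by 0.26 at day 0 (limma adjusted p = 0.408). Between days Ndc80 differed by -1.36 in STAC3 RNAi cells and -1.47 in control cells, and Cenpa by -1.51 and -1.99.

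Nuf2, the last subunit of the Ndc80 complex, was detected on 9 arrays. At day 1 it stood at 6.83, 6.78, 6.78 and 6.89 in STAC3 RNAi samples, against 6.83, 6.72, 6.79 and 6.80 in controls. At day 0 it stood at 7.57, 7.61, 7.62 and 7.53 in STAC3 RNAi samples, against 7.70, 7.72 and 7.41 in controls. The groups overlapped on both days (0.04 at day 1 and -0.03 at day 0, limma adjusted p = 0.719 and 0.835), and 7 of the 8 day 1 samples were under the detection level, so a difference there could not be measured. The fall of Nuf2 between days in control cells was at least 1.66-fold, since all day 1 controls were under that level.

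Cenpf, a large protein of the outer kinetochore, was detected on 10 arrays. Day 1 levels were 6.81, 6.94, 6.97 and 6.88 in STAC3 RNAi samples, against 6.87, 6.84, 6.85 and 6.84 in controls, which were all under the detection level. Its day 0 values were 7.25, 7.15, 7.10 and 7.19 in STAC3 RNAi samples, against 6.95, 7.08 and 6.85 in controls. The groups overlapped at day 1 (0.05, limma adjusted p = 0.524) and were apart at day 0, where Cenpf rose by 0.21 (SE 0.06, limma adjusted p = 0.0338). The day 0 call was lost with the replicate number as a block (limma adjusted p = 0.0561), within the 12 brighter arrays (0.0676), and without STAC3 RNAi replicate 1, 2 or 4 or control replicate 2 or 4 (0.0552 to 0.173). Between days it fell by 0.27 in STAC3 RNAi cells (limma adjusted p = 0.00115). In control cells it did not pass (limma adjusted p = 0.176), and with all day 1 controls under the detection level the size of a change there was not measured.

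In the spindle checkpoint 3 of 4 genes rose with STAC3 RNAi on each day. Bub1b encodes BubR1, a subunit of the inhibitor that holds back the anaphase-promoting complex. Its day 1 values were 8.71, 8.64, 8.94 and 8.71 in STAC3 RNAi samples, against 7.75, 7.76, 8.06 and 7.71 in controls. On day 0 it measured 10.19, 10.03, 10.01 and 10.08 in STAC3 RNAi samples, against 9.71, 9.73 and 9.60 in controls. No samples of the 2 groups overlapped on either day. The day 1 difference of 0.93 (SE 0.08, limma adjusted p = 5.42e-07) was the largest rise among the brightest probes of the 33 genes, and the day 0 difference was 0.40 (SE 0.09, limma adjusted p = 0.00655). The other Bub1b probe, also detected on all 18 arrays, rose by 0.53 (SE 0.07) at day 1 and 0.31 (SE 0.08) at day 0. Bub3, a partner of BubR1 in that inhibitor, rose by 0.32 at day 1 and 0.27 at day 0, and Mad2l1, the checkpoint protein Mad2, by 0.57 and 0.38. Between days Bub1b differed by -1.33 in STAC3 RNAi cells and -1.86 in control cells, Mad2l1 by -1.62 and -1.81, and Bub3 by -0.51 and -0.57.

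Ttk, or Mps1, the kinase at the head of the checkpoint, was detected on 6 arrays. The day 1 samples gave 6.78, 6.78, 6.79 and 6.79 in STAC3 RNAi samples, against 6.78, 6.78, 6.75 and 6.84 in controls, all under the detection level. Its day 0 values were 6.95, 6.94, 7.01 and 7.0 in STAC3 RNAi samples, against 7.02, 6.93 and 6.88 in controls. The groups overlapped on both days (-0.003 at day 1 and 0.03 at day 0, limma adjusted p = 0.971 and 0.757). Ttk is counted among the genes that fell between days, by at least 1.07-fold in STAC3 RNAi cells and at least 1.04-fold in control cells (limma adjusted p = 0.00255 and 0.0172). With all day 1 samples under the detection level it passed the detection filter through its day 0 values, so a lower day 1 reading was fixed by the filter, and the call in control cells was lost without control day 0 replicate 2 (0.103).

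All 4 genes of the chromosomal passenger complex rose with STAC3 RNAi at day 1, and 2 of 4 at day 0. Aurkb encodes Aurora B, the kinase that corrects faulty attachments. Day 1 levels were 8.18, 8.22, 8.16 and 8.07 in STAC3 RNAi samples, against 7.58, 7.46, 7.80 and 7.44 in controls. At day 0 the values were 9.85, 9.77, 9.74 and 9.71 in STAC3 RNAi samples, against 9.49, 9.32 and 9.15 in controls. The groups were apart on both days, by 0.59 (SE 0.08, limma adjusted p = 5.06e-05) at day 1 and 0.45 (SE 0.09, limma adjusted p = 0.00344) at day 0. Incenp, the scaffold that binds Aurora B, rose by 0.43 at day 1 and 0.47 at day 0. Cdca8, or borealin, rose by 0.68 at day 1 and differed by 0.21 at day 0 (limma adjusted p = 0.397). Between days Aurkb differed by -1.61 in STAC3 RNAi cells and -1.75 in control cells.

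Birc5, or survivin, which brings the complex to centromeres, had the largest fall between days. Its day 1 values were 9.15, 8.96, 9.01 and 8.97 in STAC3 RNAi samples, against 8.80, 8.35, 8.93 and 8.16 in controls. The day 0 samples gave 11.11, 10.88, 11.05 and 10.96 in STAC3 RNAi samples, against 11.16, 10.80 and 10.72 in controls. The groups were apart at day 1 and overlapped at day 0. Between days Birc5 differed by -1.98 (SE 0.14) in STAC3 RNAi cells and -2.34 (SE 0.15) in control cells, with limma adjusted p = 2.17e-08 and 1.68e-08. With STAC3 RNAi it rose by 0.46 (SE 0.14, limma adjusted p = 0.0192) at day 1 and differed by 0.10 at day 0 (limma adjusted p = 0.745). The rise at day 1 missed the threshold without STAC3 RNAi replicate 1 or control replicate 2 or 4 (limma adjusted p of 0.0525 to 0.0667).

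Of the genes of anaphase, limma called 1 of 3, Cdc20, at day 1 and 0 of 3 at day 0, where 1 of 3, Espl1, had an unadjusted p below 0.05. These shares are near those of all tested probes, of which 33.1% were called at day 1 and 12.5% at day 0, so the counts are no result about this step. Cdc20 encodes the activator through which the checkpoint restrains the anaphase-promoting complex. The day 1 samples gave 9.67, 9.75, 9.47 and 9.89 in STAC3 RNAi samples, against 8.74, 8.91, 9.20 and 8.50 in controls. On day 0 it measured 11.15, 10.99, 11.07 and 11.00 in STAC3 RNAi samples, against 11.12, 11.04 and 10.77 in controls. The groups were apart at day 1 (0.86, SE 0.13, limma adjusted p = 7.73e-05) and overlapped at day 0 (0.07, SE 0.14, limma adjusted p = 0.795). Pttg1, or securin, the inhibitor of separase, differed by 0.07 at day 1 and -0.05 at day 0, and Espl1, separase itself, by 0.13 and 0.22, with limma adjusted p of 0.148 to 0.738. Between days Cdc20 differed by -1.36 in STAC3 RNAi cells and -2.14 in control cells, Pttg1 by -0.40 and -0.52, and Espl1 by -0.75 and -0.66, and all 6 falls passed.

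At the midzone and in cytokinesis 3 of 4 genes rose with STAC3 RNAi at day 1 and 1 of 4 at day 0, and Kif23 fell on both. Anln encodes anillin, the scaffold of the contractile ring. Day 1 levels were 10.28, 10.31, 10.55 and 10.29 in STAC3 RNAi samples, against 9.26, 9.61, 9.93 and 9.20 in controls. At day 0 the values were 11.90, 11.73, 12.00 and 11.66 in STAC3 RNAi samples, against 11.81, 11.86 and 11.49 in controls. The samples were apart at day 1 (0.86, SE 0.14, limma adjusted p = 0.000199) and overlapped at day 0 (0.11, SE 0.15, limma adjusted p = 0.729). Prc1, which bundles midzone microtubules, rose by 0.66 at day 1 and differed by 0.34 at day 0 (limma adjusted p = 0.139). Ect2, which activates the GTPase RhoA at the cleavage site, rose by 0.21 at day 1 and 0.32 at day 0. Between days Anln differed by -1.47 in STAC3 RNAi cells and -2.22 in control cells, Prc1 by -1.52 and -1.83, and Ect2 by -0.69 and -0.58.

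Kif23, the midzone motor that pairs with Racgap1 in centralspindlin, gave opposite readings from its 3 probes. Its brightest probe, which stands for the gene by the rule, measured 11.42, 11.27, 11.63 and 11.34 in STAC3 RNAi samples at day 1, against 12.48, 12.16, 12.32 and 12.57 in controls. On day 0 that probe measured 10.66, 11.17, 10.91 and 11.33 in STAC3 RNAi samples, against 11.72, 11.63 and 12.00 in controls. By this probe all STAC3 RNAi samples lay under all controls of their day, with differences of -0.97 (SE 0.13, limma adjusted p = 4.83e-05) at day 1 and -0.77 (SE 0.14, limma adjusted p = 0.00236) at day 0. The second probe measured 8.28, 8.34, 8.55 and 8.37 in STAC3 RNAi samples at day 1, against 7.42, 7.42, 7.70 and 7.36 in controls, and 9.88, 9.92, 9.83 and 9.97 in STAC3 RNAi samples at day 0, against 9.29, 9.15 and 9.20 in controls. The third measured 8.10, 8.29, 8.01 and 8.62 in STAC3 RNAi samples at day 1, against 7.14, 7.63, 7.58 and 7.44 in controls, and 9.81, 9.56, 9.77 and 9.70 in STAC3 RNAi samples at day 0, against 9.59, 9.18 and 8.93 in controls. By both of these probes STAC3 RNAi samples were higher, by 0.91 and 0.81 at day 1 and by 0.69 and 0.48 at day 0, and each difference passed but for the third probe at day 0 (limma adjusted p = 0.0617).

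Between days the first Kif23 probe rose by 0.40 in STAC3 RNAi cells and by 0.59 in control cells, while the second probe differed by -1.52 and -1.74 and the third by -1.46 and -1.78. The rise of the first probe in STAC3 RNAi cells was lost without STAC3 RNAi day 1 replicate 3 or day 0 replicate 1 or 3 (limma adjusted p of 0.0701 to 0.0976). The mean of the 3 Kif23 probes differed by 0.25 at day 1 and 0.13 at day 0, so the direction for this gene depends on the probe. With probes averaged, 27 of 33 genes rose and 0 fell at day 1 by limma, and 17 rose and 0 fell at day 0.

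**Figure D4:**
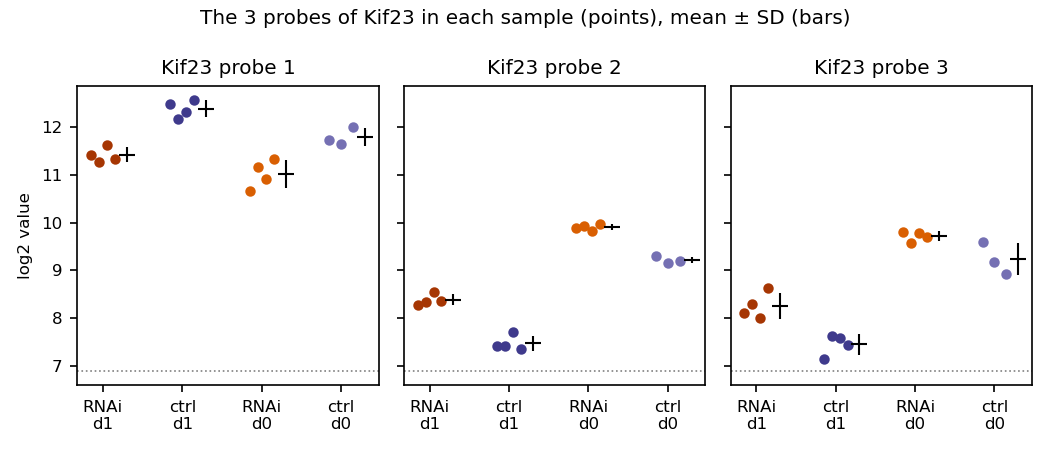
Log2 values of the 3 Kif23 probes in each sample (points) with the mean and standard deviation (bars), in STAC3 RNAi (RNAi) and control (ctrl) samples at day 1 (d1) and day 0 (d0); the dotted line is the detection level of 6.88. Probe 1 is lower in STAC3 RNAi samples and higher at day 1, and probes 2 and 3 run the other way.

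In all, 15 of the tested genes had more than 1 tested probe, which gave 20 further probes. Without Kif23, all 18 had the sign of their gene's brightest probe at day 1 and between days in both kinds of cells. At day 1, 13 of the 18 passed, and 5 did not: those of Anln (0.08, against 0.86 for the brightest probe), Cenpa (0.10, against 0.74), Nusap1 (0.03, against 0.71), Cdk1 (0.07, against 0.36) and Spc24 (0.24, against 0.27), none of which was detected on all 18 arrays. Between days 17 of the 18 passed in STAC3 RNAi cells and 16 in control cells. At day 0, 6 of the 18 passed, all as higher. Among them were the other probes of Cdca3 (0.26, limma adjusted p = 0.0347) and Cdca8 (0.37, limma adjusted p = 0.0437), whose brightest probes did not pass. The other probes of Cdk1 (0.04), Top2a (0.18) and Mad2l1 (0.24) and 1 of the 2 of Kif4 (0.26), whose brightest probes rose, did not. At day 0, 6 of the 18 had the opposite sign, and none of these 6 passed: 2 for Birc5 (-0.03 and -0.02), 3 for Cdc20 (-0.01, -0.10 and -0.06) and 1 for Cenpa (-0.04). The brightest probes of these 3 genes did not pass at day 0 either. In the difference of the effect between days, 6 of the 18 had the opposite sign.

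The difference of the STAC3 RNAi effect between days was tested directly, as the effect at day 1 minus that at day 0. It passed for 3 of 33 genes, all with a larger rise at day 1: Bub1b by 0.53 (SE 0.12, limma adjusted p = 0.0182), Cdc20 by 0.79 (SE 0.18, limma adjusted p = 0.0232) and Anln by 0.75 (SE 0.20, limma adjusted p = 0.0461). Over all tested probes 2.23% passed as higher and 2.47% as lower (4.7% in either direction). The median over the 33 genes was 0.12, against -0.001 over all tested probes. For Cdc20, 2 of the 3 other probes passed too (0.79 and 0.83) and the last did not (0.37, limma adjusted p = 0.209). The other Bub1b probe gave 0.22 (limma adjusted p = 0.264), and the other Anln probe gave -0.04 (limma adjusted p = 0.891). These calls were lost without some single samples. In such fits Anln stayed called only without control day 0 replicate 4, control day 1 replicate 3 or STAC3 RNAi day 1 replicate 4. Anln also lost its call with no detection filter, within the 12 brighter arrays and with the probes of a gene averaged. By limma 0 of 33 genes passed without control day 0 replicate 2 (7 at an unadjusted p below 0.05). Without control day 0 replicate 3 it was also 0 (8 unadjusted). Over all tested probes 470 and 453 then passed, against 865 with all samples. Bub1b then gave 0.519 and 0.506, and Cdc20 0.716 and 0.755 (limma adjusted p of 0.0521 to 0.0716). With others left out, 1 passed without STAC3 RNAi day 1 replicate 2, 7 without control day 1 replicate 3 and 5 without control day 0 replicate 4. For the other 30 genes a larger rise at day 1 than at day 0 was not shown. Some of them were dim at day 1, as Kif11 at 6.97 to 7.23 in control samples, and differences of dim probes are compressed. Others were brighter, as Cdk1 at 9.05 to 9.73 in those samples, whose effect at day 1 minus that at day 0 was -0.11. Whether dimness bears on these counts was not tested.

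Regulators of mitotic entry, other kinetochore genes and other spindle proteins, taken from lists of related genes, were read in the same fit, beside 16.8% of all tested probes that rose at day 1, 6.7% that rose at day 0, and 20.8% and 18.1% that fell between days in STAC3 RNAi and control cells. Of 11 entry regulators, 7 rose with STAC3 RNAi on each day, with medians of 0.24 at day 1 and 0.38 at day 0. At day 1 the kinase gene Pbk rose by 0.92 (SE 0.14) and Foxm1, the forkhead factor of late cell cycle genes, by 0.62 (SE 0.10). At day 0 Mybl2, the B-Myb factor that works with the CHR element, rose by 0.77 (SE 0.08) and the kinase gene Melk by 0.55 (SE 0.10). Between days 9 of the 11 fell in STAC3 RNAi cells and 10 in control cells, led in both by Pbk (-1.77 and -2.26) and Gtse1 (-1.74 and -1.97). In the effect at day 1 minus that at day 0, 2 of the 11 passed as lower and 0 as higher, where 2.47% and 2.23% of all tested probes did: Mybl2 by -0.55 (SE 0.11, limma adjusted p = 0.00817) and the cyclin F gene Ccnf by -0.25 (SE 0.07, limma adjusted p = 0.0376). Over all 79 tested related genes 3 passed as lower and 0 as higher. These shares are near the 2.47% and 2.23% of all tested probes, so the counts over the 79 are no result about the related genes. Ccnf was under the detection level in all day 1 samples, so its effect at day 1 was not measured. For Mybl2 the day 1 levels were close to the detection level, at 6.91 to 7.17 in STAC3 RNAi samples and 6.80 to 6.97 in control samples, where differences are compressed.

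Among 25 other kinetochore and centromere genes 14 rose with STAC3 RNAi at day 1 and 16 at day 0, with medians of 0.27 and 0.31, where 16.8% and 6.7% of all tested probes rose. At day 1 Cenpb, a DNA-binding centromere protein, rose by 0.53 and Sgo2a, a shugoshin that protects cohesion, by 0.53. At day 0 Kntc1, of the complex that brings dynein to kinetochores, rose by 0.62 and Oip5, which helps load Cenpa, by 0.55. Between days 22 of the 25 fell in STAC3 RNAi cells and 21 in control cells, against 20.8% and 18.1% of all tested probes, with Sgo1 at -1.49 and -1.57. Of 16 other spindle motors and microtubule proteins 9 rose at day 1 and 5 at day 0, with medians of 0.29 and 0.24. The microtubule protein Ckap2 (0.64) and the kinesin Kif18b (0.58) led at day 1, and the kinesins Kif15 (0.64) and Kif18b (0.59) at day 0. Between days all 16 fell in STAC3 RNAi cells and 14 in control cells, with the spindle protein Spag5 at -1.31 and -1.53.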

How the data were processed

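RNA of C2C12 cells was measured on 18 Illumina bead arrays of 15 samples. The deposited non-normalized table holds average bead intensity, a further column of its error (not used here) and a detection p-value for each of 45281 probes, per the file headers. The authors also deposited a value table of 24538 probes on a log2 scale. The submitters' processing notes name lumi; its version is not stated in them. That the values are log2 was read from the table itself: they change by 0.978 to 1.022 per unit of log2 intensity between their 90th and 99th percentiles, and by 0.545 to 0.713 between the 25th and 50th. Differences of dim probes are therefore smaller here than on the intensity scale.

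Column names of the non-normalized table differ from those of the value table for 12 of 18 arrays with the same ranking of probes. In the value table each of the 3 repeat arrays is most like its partner (r of 0.9949, 0.9955 and 0.9956), and in the other table the partner ranks 12, 4 and 17 of 17. The value table was used under its own names, and detection was counted over all arrays, where names play no part.

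Repeat arrays were averaged. A model of the 4 group means was fitted by limma 3.58.1 (R 4.3.3) to the 18408 probes with detection p-values below 0.01 on at least 3 arrays, with Benjamini-Hochberg adjustment over all of them, and adjusted p below 0.05 was called. A gene was read from its probe with the highest mean. The number of arrays limits the precision. Where all samples of a group lie under the detection level of 6.88, a called fold is a bound, computed from the other group's mean and that level. Of the probes of the value table, 20685 carry 1 gene name, 8 several and 3845 none.

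Values in every sample are given for the gene of each step with the smallest p at day 1, for those that moved against the rest, and for those with the largest and smallest change. Anln was added after its values were seen, because its effect differed between days. In the related lists the 2 largest rises and falls that passed in a comparison, and genes against their list, were open to naming. The members and lists were chosen with earlier results of these data known. Mki67 was not analysed here.

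Same-numbered samples were checked for shared deviations from their group means. For control day 1 and day 0 the 3 correlations were 0.131, 0.210 and 0.226, so the numbers were taken to pair those samples, on this evidence from the data alone. The main fit holds no term for the replicate number, so its p-values are unpaired there too. The number entered only as the replicate block, with which 32 of 33 genes were called between days in control cells. In the other comparisons at least 1 pair was below 0.1.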

Additional observations from a re-analysis of the deposited data

Results flagged for a closer look

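The gap between 1 sample and the rest of its group was checked in 99 sets of 4 samples, 33 genes in 3 groups, and 7 stood apart. Chance gives about 5% of such sets. STAC3 RNAi day 1 replicate 3 was high for Aurka (9.0, the others 8.75 to 8.79), Incenp (8.13, the others 7.76 to 7.81) and Anln (10.55, the others 10.28 to 10.31). STAC3 RNAi day 1 replicate 4 gave 6.95 for Pttg1, the others 6.88 to 6.89, all close to the detection level. Control day 1 replicate 3 was high for Bub1b at 8.06, the others at 7.71 to 7.76. STAC3 RNAi day 0 replicate 4 was high for Bub3 at 8.56 (the others 8.40 to 8.41), and STAC3 RNAi day 0 replicate 1 for Espl1 at 7.97 (the others 7.77 to 7.79).

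The effect of STAC3 RNAi differed between days for Bub1b (0.53), Cdc20 (0.79) and Anln (0.75), by the limma test of the difference itself, which 4.7% of all tested probes passed. By limma 0 of 33 genes passed it without control day 0 replicate 2 (7 at an unadjusted p below 0.05) or without control day 0 replicate 3 (8 unadjusted). Over all tested probes 470 and 453 then passed, against 865 with all samples. With single samples left out, the call of Anln was kept only without control day 0 replicate 4, control day 1 replicate 3 or STAC3 RNAi day 1 replicate 4. The other Bub1b probe gave 0.22 (limma adjusted p = 0.264) and the other Anln probe -0.04 (limma adjusted p = 0.891).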

How the results depend on the processing

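The order of counts here is STAC3 RNAi against control at day 1 and at day 0, day 1 against day 0 in STAC3 RNAi cells and in control cells, and the difference of the effect between days. All probes and samples gave 27, 17, 33, 32 and 3 calls. With columns of the non-normalized table taken by name, limma called 0 of 33 genes in each, and 0, 1, 22, 0 and 0 had an unadjusted p below 0.05. Over all 18408 tested probes it then called 0, 0, 764, 0 and 0. Within the 6 dimmer arrays, where day 0 has 1 sample of each group, assumed to vary like the rest, limma called 10, 0 (15 unadjusted), 28, 29 and 0 (1 unadjusted). Leaving out each sample gave 23 to 27, 6 to 11, 32 to 33, 31 to 32 and 0 to 7 calls. Over all tested probes the calls were then 5199 to 5918, 1480 to 1942, 6895 to 7557, 5412 to 6207 and 453 to 1084. With all samples they were 6090, 2298, 7628, 6599 and 865. The causes were not tested. With the replicate block the counts were 27, 16, 33, 32 and 4, and among the genes given in every sample it ended no call but that of Cenpf at day 0. With the array set as a block they were 27, 18, 33, 32 and 3. No detection filter and an intensity trend each gave 14 at day 0. The counts for related genes stood within 1.5 times of their own with no detection filter, the only other setting run for them.

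Signs changed as follows. With the mean of a gene's probes, Kif23 gave 0.25 at day 1, 0.133 at day 0, -0.859 and -0.977 between days in STAC3 RNAi and control cells, and 0.118 for the difference between days, and Cdc20 gave -0.021 at day 0. With samples left out in turn, Ttk at day 1 gave -0.015 to 0.014 (above 0 without control replicate 4). At day 0, Ttk gave -0.002 to 0.069 and Cdc20 -0.029 to 0.144 (both below 0 without control replicate 4), and Nuf2 -0.134 to 0.026 (0.016 without control replicate 2 and 0.026 without 3). Ttk at day 1 gave 0.005 without repeat arrays, and 0.006 and 0.001 within the 12 and the 6 arrays. Within the 6 arrays Nuf2 gave 0.101 at day 0, Cenpf 0.016 between days in control cells, and the difference between days was -0.102 for Aurkb, -0.017 for Birc5 and -0.085 for Nuf2. Within the 12 it was -0.0005 for Kif11. By names of the non-normalized table, Birc5 gave -0.073, Cenpf -0.06 and Nuf2 -0.207 at day 1, Kif23 0.06 and Nuf2 0.688 at day 0, Kif23 -0.137 between days in STAC3 RNAi cells and Ttk 0.00023 in control cells. The difference between days was then -0.956 for Aurka, -0.844 for Aurkb, -1.352 for Birc5, -0.718 for Bub1b, -0.911 for Cdc20, -0.543 for Kif11, -0.792 for Kif22, -0.62 for Ndc80 and -0.894 for Nuf2. That difference passed without control day 1 replicate 3 for Aurka (0.476) and Kif22 (0.488), and without control day 0 replicate 4 for Aurka (0.497).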

Other observations

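Genes of condensin, cohesin and the anaphase-promoting complex, the ubiquitin ligase that starts anaphase, were read in the same fit, beside 33.1% of all tested probes called at day 1, 12.5% at day 0, 41.4% between days in STAC3 RNAi cells and 35.8% in control cells. Of 7 condensin genes, which compact chromosomes, 4 rose with STAC3 RNAi on each day, with medians of 0.30 at day 1 and 0.38 at day 0, and all 7 fell between days in both kinds of cells. At day 1 Ncapd2 rose by 0.80 (SE 0.13) and Ncaph by 0.46 (SE 0.08), and at day 0 Ncaph by 0.59 (SE 0.08) and Ncapg2 by 0.56 (SE 0.09). Of 9 genes of cohesin and its regulators, which tie sister chromatids and also shape interphase chromatin, 4 rose at day 1 and 2 at day 0, both times with Smc1a (0.33 and 0.33) and Stag2 (0.31 and 0.25). Between days 2 of the 9 fell and 1, Stag2, rose by 0.19 in STAC3 RNAi cells, and 3 fell in control cells. These shares called between days are near those of all tested probes, or under them, so the counts are no result about cohesin.

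Of 11 genes of the anaphase-promoting complex and its activators, Cdc16 fell by 0.71 (SE 0.09, limma adjusted p = 2.75e-05), Cdc27 by 0.26 and Anapc13 by 0.24 at day 1, and Anapc5 rose by 0.28. At day 0 Cdc16 fell by 0.60 (SE 0.10, limma adjusted p = 0.000996), and no other of the 11 passed. The medians were -0.01 at day 1 and 0.01 at day 0. Between days Anapc13 (0.40) and Anapc7 (0.23) rose and Cdc27 (-0.29) and the activator gene Fzr1 (-0.28) fell in STAC3 RNAi cells. In control cells Anapc13 (0.59) rose and Anapc5 (-0.31) and Fzr1 (-0.30) fell. On each day and between days the share of the 11 genes called was near that of all tested probes, or under it. The counts are therefore no result about this complex. The effect on Cdc27 was lower at day 1 than at day 0, with a difference of -0.34 (SE 0.09, limma adjusted p = 0.0428).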
